A study of Homo sapiens with 12 samples.

Results

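Named long noncoding RNA genes were taken as all genes whose name on the array starts with LINC and a number, or ends in -AS1, -AS2 or -IT1, with a signal well above background on at least 2 of 12 arrays. This gave 413 genes, of 831 genes with such a name on the array and of 18225 gene names that met the same signal criterion. By the study's description, RNA came from HK-2 and from RPTEC/TERT1 cells, both lines of human proximal tubule. HK-2 cells are known as immortalized with papillomavirus genes, RPTEC/TERT1 cells with telomerase. All cells were starved for 24 h and then kept for 24 h without a ligand (control), with 10 ng/mL of the pro-inflammatory cytokine IL-1β, or with 500 nM of empagliflozin (Empa), an inhibitor of the glucose transporter SGLT2. There were 2 biological replicates of every line and treatment, and the number of one-color arrays limits the precision. Slide 1 carries the arrays labelled HK-2 replicate 1, slide 2 RPTEC/TERT1 replicate 1, slide 3 RPTEC/TERT1 replicate 2 and slide 4 HK-2 replicate 2, with 1 array per treatment on every slide. Both lines are immortalized cultures of a single cell type.

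Long noncoding RNAs are transcripts that are not translated into a known protein. Some act in the nucleus on chromatin or on the neighboring gene, others bind proteins or microRNAs in the cytoplasm, and for most no function is known. The LINC genes lie between protein-coding genes, the -AS genes are read from the strand opposite to the gene they are named after, and the -IT genes lie within an intron. Many are transcribed at low levels and in few cell types.

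The members were represented by 483 probes, of which 478 probes of 409 genes had a value on all 12 arrays and were tested. These were 228 probes of LINC genes, 226 of -AS1 genes, 14 of -AS2 genes and 10 of -IT1 genes. A signal well above background on every array was seen for 46.7% of the 478 probes, against 67.6% of all 22688 probes tested, and 26.4% reached this on fewer than 6 arrays, against 12.4%. The median control level was −3.13 for members and −1.29 for all probes, on the log2 scale relative to the 75th percentile of each array. The number of members well above background ranged from 294 on the control array of slide 3 to 399 on the Empa array of slide 4. Against the current RefSeq annotation, 473 of the 478 probes were matched, and 443 of them belong to a gene listed as a long noncoding RNA. Another 17 belong to a gene now listed as protein-coding and 12 to a transcribed pseudogene, and 85 genes are listed under another symbol. Names are given as on the array.

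The line labels were compared with the levels of the members in the control arrays. Across the 223 member probes well above background on all 12 arrays, Pearson's r was 0.975 between the controls of slides 1 and 3, which carry different line labels, and 0.951 between those of slides 2 and 4, which differ too. It was 0.907 between slides 1 and 4, both labelled HK-2, and 0.884 between slides 2 and 3, both labelled RPTEC/TERT1. Probes of the same arrays are no replicates, so these r are descriptions. Among the same members, 9 (4.04%) differed by more than 2-fold between the controls of slides 1 and 3, 29 (13.0%) between slides 2 and 4, 47 (21.1%) between slides 1 and 4 and 55 (24.7%) between slides 2 and 3. Over all 15329 probes detected in this way, the shares in the same order were 3.39%, 7.0%, 28.9% and 31.5%. Pearson's r over these probes was 0.984, 0.973, 0.88 and 0.875, so the pairing was not particular to the members. Markers of other cell types fell into the same pairs of slides, in either direction. Control levels on slides 1 to 4 were −4.97, 3.00, −4.88 and 2.96 for the fibroblast marker DCN and −8.41, 1.95, −8.41 and 1.97 for LUM, at the floor on slides 1 and 3. The third fibroblast marker tested, COL1A1, was higher on slides 1 and 3, with −2.59, −4.10, −2.85 and −4.33. Of the distal tubule markers, SLC12A1 was at the floor on slides 2 and 4, with 4.59, −8.41, 5.21 and −8.41, and SCNN1A ran the other way, with 0.62, 1.63, 0.76 and 1.68. Of the markers of proximal tubule and renal epithelium, 16 of 19 were tested. EPCAM had 5.56, 4.45, 5.65 and 4.52, and KRT18 4.86, 4.21, 4.98 and 4.43. PAX2 was at the floor on slides 2 and 4, with 3.54, −8.41, 3.53 and −8.41, and CDH6 was higher there, with −3.00, 3.43, −3.02 and 2.57. The sample titles, used here, name 2 lines, whereas the source field of the records gives HK-2 for all 12 arrays. The title labels thus run against the levels, which line an array holds cannot be told, and lines are named below only as labels. The arrays of a slide are compared only with each other for treatment effects.

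The 10 member probes with the widest control ranges are given by slide, ranked with a control that is not well above background raised to the lowest signal that was. By the levels as measured, other dim members can have a wider range, such as LINC00271 with 4.67. Here and below, values are given in the order of slides 1 to 4. The range over the 4 control arrays was above 2 on the log2 scale for 145 of 478 member probes (30.3%), against 24.1% of all probes tested. In the table of the authors it was 222 members (46.4%, against 33.0%). TRHDE-AS1, named after a peptidase gene, had on 1 of its 2 probes (A_33_P3311493) control levels of −0.26, −5.61, −0.18 and −5.58. It was well above background on slides 1 and 3 alone, with a range of 5.44, and its other probe showed the same slides high, with −1.06, −6.31, −0.76 and −7.41. ZMIZ1-AS1 ran the other way, with −5.00, 1.13, −5.81 and 0.70. It was well above background on slides 2 and 4 alone. LINC01574 had −3.91, −0.84, −5.15 and −0.33, TP73-AS1 −1.58, −5.97, −1.48 and −5.82, and HOXA-AS2, which lies in the HOXA homeobox cluster, −1.83, −6.63, −1.62 and −5.55. Of these, LINC01574 was high on slides 2 and 4, and TP73-AS1 and HOXA-AS2 were high on slides 1 and 3. MCF2L-AS1 had −1.71, −6.08, −1.75 and −5.85, and EMC3-AS1 −5.51, −1.86, −5.77 and −1.53. EPB41L4A-AS2 had −2.60, −8.41, −2.04 and −4.08, the second of these at the floor of the scale, and LINC01529 had 1.97, −1.79, 1.60 and −0.62. In each of these members slides 1 and 3 lay nearest to each other. The probes were picked by their range over the same 4 arrays, so this is no separate support for the pairing of slides. Slides 2 and 4 did so too, except in EPB41L4A-AS2, where slide 4 was nearer to slides 1 and 3 than to slide 2. Not all members with a range above 2 paired this way: LINC01405, with 2.77, 0.21, −0.07 and 0.74, was highest on slide 1 and lowest on slide 3. Between the lines as labelled, limma with Benjamini-Hochberg adjustment over all probes called 0 of 478 members for the control level, against 0.00% of all probes, with 7 members at an unadjusted p under 0.05 (1.46%, against 0.74%).

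**Figure D1:**
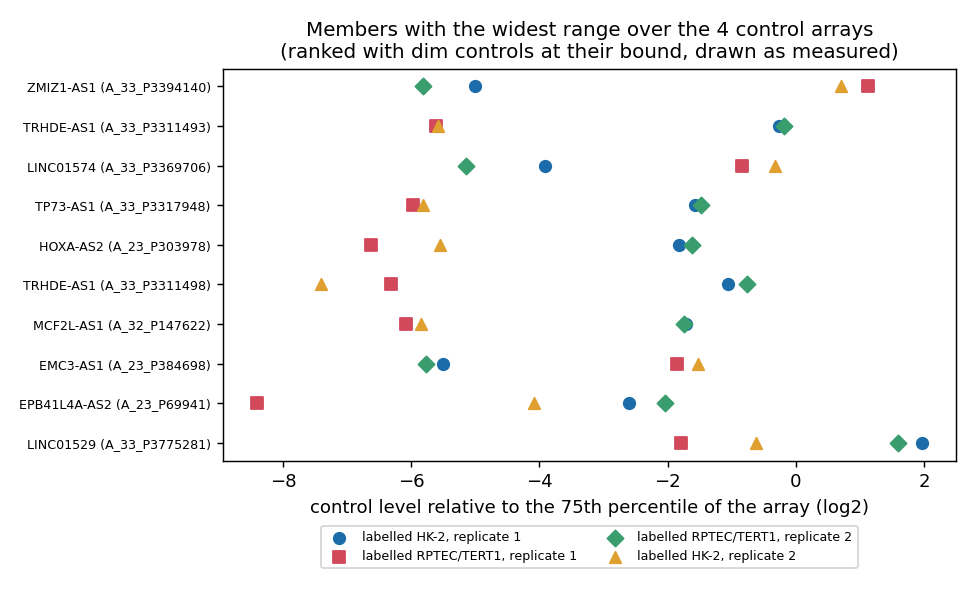
Control levels of the 10 member probes with the widest range over the 4 control arrays, ranked with dim controls raised to the lowest signal well above background and drawn as measured, on the log2 scale relative to the 75th percentile of the array, 1 point per control array. TRHDE-AS1 lies near −0.2 on 2 slides and near −5.6 on the others.

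IL-1β was compared with control on the same slide to see which noncoding transcripts respond to a pro-inflammatory cytokine. Over the 4 slides, IL-1β changed 41 of 478 member probes (39 genes), 8.58% of members against 8.27% of all probes. Of these, 5 rose (1.05%, against 3.90% of all probes) and 36 fell (7.53%, against 4.38%). The test was limma with slide as a term, with Benjamini-Hochberg adjustment over 22688 probes and a threshold of 0.05. All 41 moved in the same direction on 4 of 4 slides. The median difference was −0.18 over members and −0.03 over all probes. By class, 9 LINC, 24 -AS1 and 3 -AS2 probes fell, and 1 LINC and 4 -AS1 probes rose, while none of the 10 -IT1 probes passed. At least 2-fold lower on each of 4 slides were 14 members (2.93%, against 1.34%), and at least 2-fold higher 2 members (0.418%, against 1.33%). Of the 41, 19 reached a signal well above background on every array, and in 22 the dimmer group held an array that was not.

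The count depended on the slide term and on single arrays, as did that of all probes. Without the slide term it was 1 member (0.209%, against 0.0264% of all probes), and with slide as a random block 11 (2.3%, against 1.92%). Leaving out the control, IL-1β or Empa array of slide 1 gave 13, 17 and 63 members. These were 2.72%, 3.56% and 13.2% of members, against 2.83%, 3.59% and 13.6% of all probes. For slide 2 it was 21, 43 and 29 (4.39%, 9% and 6.07%, against 4.99%, 7.81% and 5.86%). For slide 3 it was 12, 12 and 31 (2.51%, 2.51% and 6.49%, against 2.72%, 2.86% and 5.99%). For slide 4 it was 11, 34 and 32 (2.3%, 7.11% and 6.69%, against 3.54%, 6.61% and 5.6%). Without slide 1, 2, 3 or 4 as a whole it was 14, 15, 7 and 8. These were 2.93%, 3.14%, 1.46% and 1.67% of members, against 3.12%, 3.39%, 1.16% and 1.94% of all probes. Across these fits 0 to 11 members rose and 7 to 52 fell. With normexp background correction followed by quantile normalization (normexp below), which changes both choices at once, 5 members rose and 17 fell (77.3% of the calls lower, against 87.8%), and the members' median difference was −0.05. In the table of the authors, 1 rose and 13 fell, with a median of −0.06. These calls were 4.6% of members with normexp, against 8.98% of all probes, and 2.93% in the table of the authors, against 8.59%. Of the 41 probes, 11 passed under each of quantile normalization, normexp, the table of the authors, a floor of 5 signal units and an intensity trend.

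**Figure D2:**
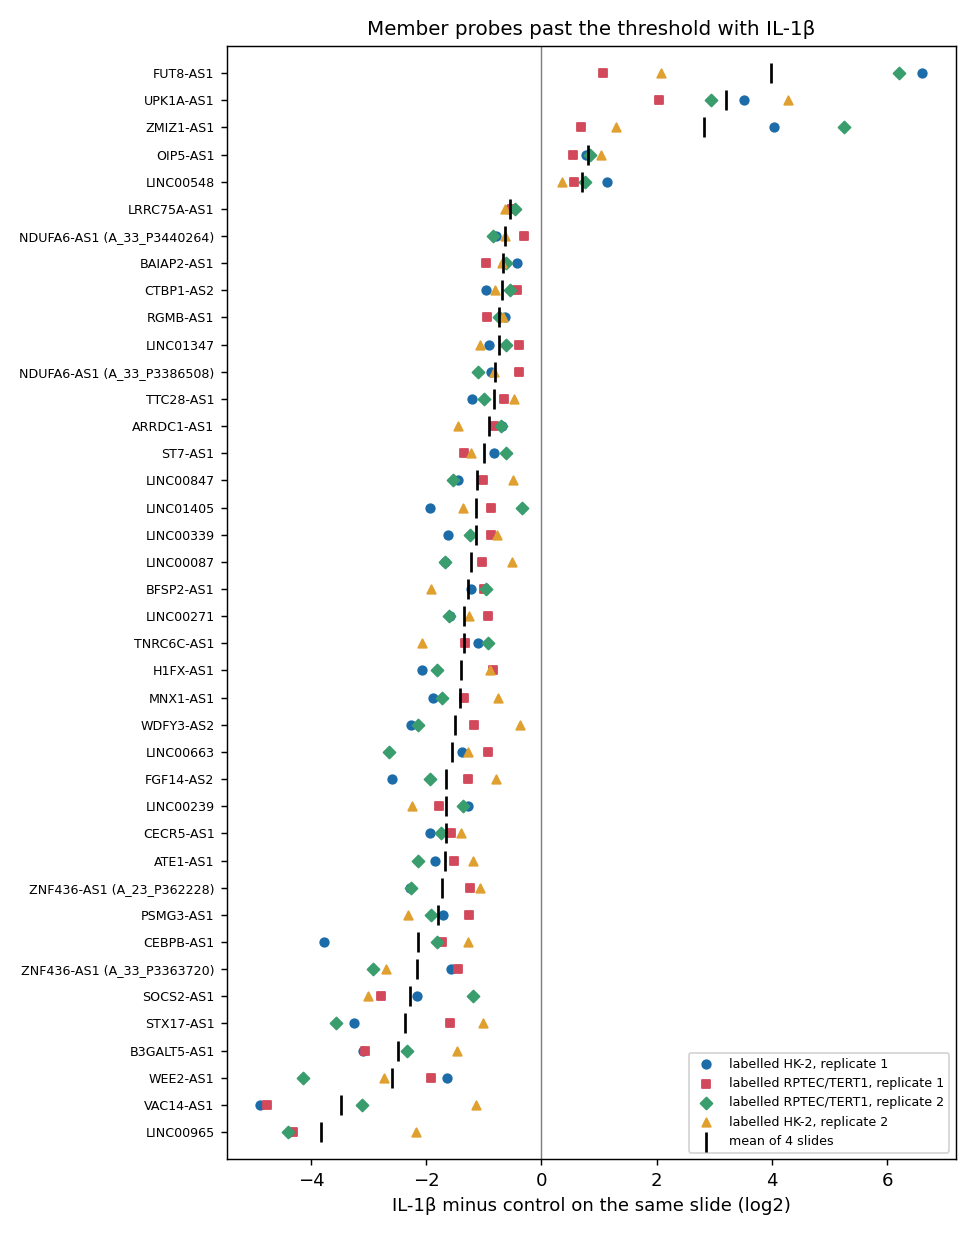
IL-1β minus control on the log2 scale for member probes that passed the threshold, 1 point per slide, with the mean of 4 slides as a bar. The probes drawn that fell lie left of 0 on every slide and the 5 that rose lie right of it.

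Of the 5 members that rose, OIP5-AS1 and LINC00548 were well above background on all 12 arrays. OIP5-AS1 is a conserved noncoding RNA also known as cyrano. Its probe lies on the plus strand at chr15:41591663-41591722 (hg19), and the sequence is shown because this rise passed under each of the 5 alternatives just named. With slide as a random block none of the 5 members that rose passed, with an adjusted p between 0.0538 for OIP5-AS1 and 0.203 for ZMIZ1-AS1.
OIP5-AS1: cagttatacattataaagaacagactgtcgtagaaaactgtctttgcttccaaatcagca
Control levels were −1.23, −1.30, −1.19 and −1.27, and IL-1β levels −0.45, −0.75, −0.34 and −0.23. The groups did not overlap, and every IL-1β array was above every control array. The rise was 0.81 ± 0.16 (log2, SE, 4 slides, limma adjusted p = 0.0189). It passed in 7 of 16 fits with an array or slide left out, with an adjusted p between 0.016 and 0.126. LINC00548 had control levels of −4.18, −4.45, −4.28 and −3.96 and IL-1β levels of −3.05, −3.89, −3.53 and −3.60, which do not overlap either. It rose by 0.70 ± 0.18 (limma adjusted p = 0.0471) and passed in 1 of these 16 fits. LINC00548 did not pass with normexp (0.24, limma adjusted p = 0.0923) or in the table of the authors (0.2, 0.129). With an intensity trend it did not pass either (limma adjusted p = 0.0803).

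FUT8-AS1 and ZMIZ1-AS1 had larger and less even differences. FUT8-AS1 is named after the fucosyltransferase FUT8. Its probe lies on the minus strand at chr14:65878038-65878097 (hg19), and the sequence is shown because this member had the largest rise.
FUT8-AS1: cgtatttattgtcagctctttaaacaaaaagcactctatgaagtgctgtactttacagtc
FUT8-AS1 had control levels of −4.77, −4.15, −3.96 and −5.05, well above background on 1 of 4 arrays, and IL-1β levels of 1.84, −3.09, 2.24 and −2.99. All 4 IL-1β arrays were above all controls, and the rise was at least 15.5-fold (limma adjusted p = 0.0391), a bound that takes control arrays not well above background at the lowest signal that was. The bound holds for the background-subtracted signal only. With normexp the log2 difference was 2.29 (adjusted p = 0.0774) and in the table of the authors 1.87 (0.0906), so the call was lost in both. The differences were 6.61 and 6.20 on slides 1 and 3, and 1.06 and 2.07 on slides 2 and 4. ZMIZ1-AS1 had control levels given above and IL-1β levels of −0.97, 1.81, −0.56 and 2.01, so the groups overlapped between slides but not within a slide, with differences of 4.03, 0.68, 5.25 and 1.30. It rose at least 6.59-fold on the background-subtracted signal (limma adjusted p = 0.0417). The log2 difference was 1.35 with normexp, where it passed, and 1.03 in the table of the authors, where it did not (adjusted p = 0.06). Both passed in 5 of the 16 fits with an array or slide left out, with an adjusted p of up to 0.194 for FUT8-AS1 and 0.205 for ZMIZ1-AS1. UPK1A-AS1 was at the floor in all 4 control arrays and well above background on 1 of 4 IL-1β arrays, so no size is given for its rise (limma adjusted p = 0.0401). It passed in 4 of the 16 fits. With normexp and in the table of the authors it did not pass (limma adjusted p = 0.161 and 0.181). With a floor of 5 signal units the limma adjusted p was 0.226.

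**Figure D3:**
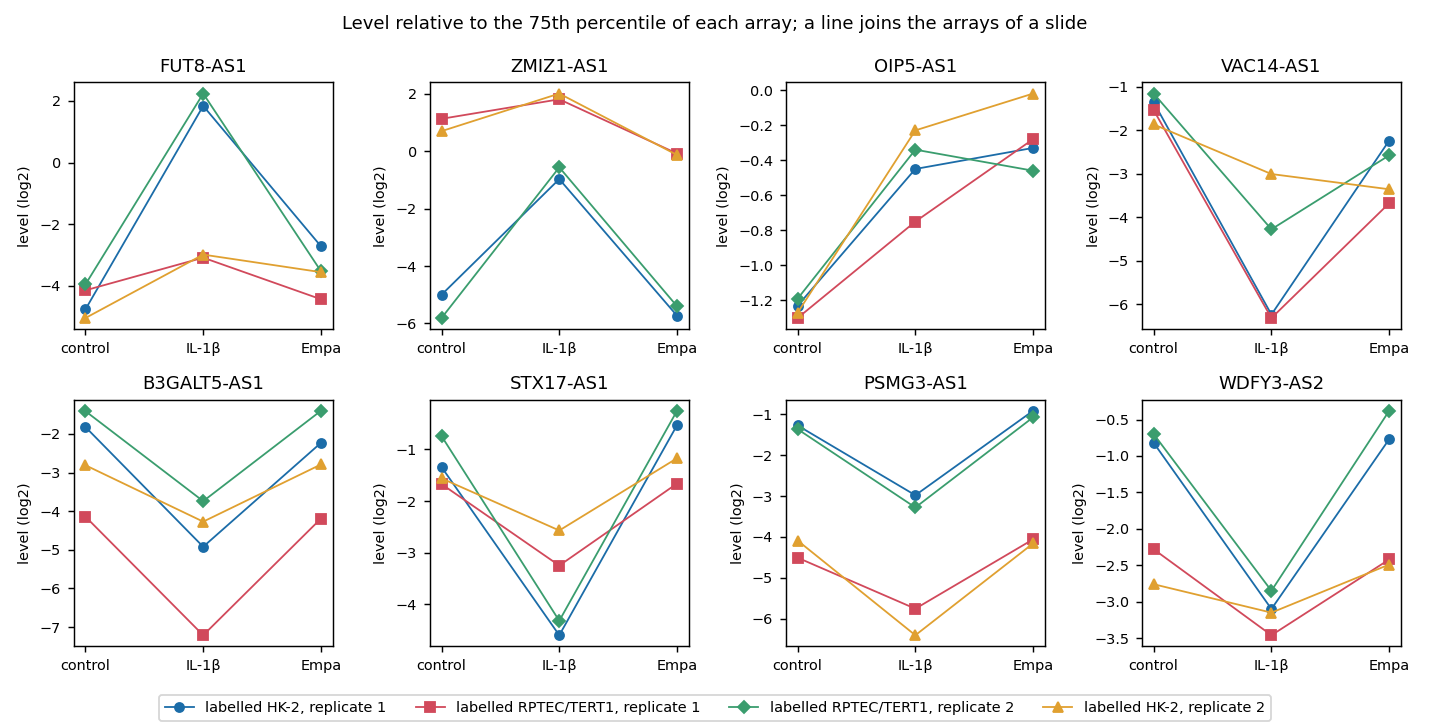
Levels of 8 members on the 12 arrays, on the log2 scale relative to the 75th percentile of the array, with a line for each slide. FUT8-AS1 reaches about 2 with IL-1β on 2 slides and stays near −3 on the others.

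Among the members that fell, VAC14-AS1 had a mean control level of −1.48, against medians of −3.13 for members and −1.29 for all probes. Control levels were −1.36, −1.54, −1.16 and −1.87, all well above background, and IL-1β levels −6.24, −6.32, −4.28 and −3.01, of which 1 was. The groups did not overlap. VAC14-AS1 fell at least 8.07-fold on the background-subtracted signal (limma adjusted p = 0.0155). The log2 difference was −1.21 with normexp and −1.01 in the table of the authors, and it passed in both, and in 10 of 16 fits with an array or slide left out. B3GALT5-AS1 had control levels of −1.82, −4.14, −1.41 and −2.81 and IL-1β levels of −4.92, −7.21, −3.74 and −4.27. It was lower on every slide and fell at least 4.03-fold over the 4 slides on the background-subtracted signal (limma adjusted p = 0.00271), though the groups overlapped between slides. Its 3 other tested probes had differences between −0.82 and −0.03 and did not pass. STX17-AS1, named after the syntaxin STX17, had control levels of −1.34, −1.67, −0.74 and −1.56 and IL-1β levels of −4.60, −3.25, −4.32 and −2.57. The groups did not overlap, with 4 controls and 2 IL-1β arrays well above background. It fell at least 5.12-fold on the background-subtracted signal (limma adjusted p = 0.0248) and passed in 6 of the 16 fits. The log2 difference was −0.95 with normexp, where it passed, and −0.77 in the table of the authors, where it did not (adjusted p = 0.0619), nor with the random block (0.0552).

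ZNF436-AS1 had 2 probes past the threshold, but only the brighter was well above background on any control or IL-1β array. The brighter one (A_23_P362228) had control levels of 0.53, −0.38, 0.34 and −0.14, and IL-1β levels of −1.76, −1.61, −1.93 and −1.20, with all 12 arrays well above background. The groups did not overlap, and the fall was 3.28-fold (limma adjusted p = 0.026, passed in 6 of 16 fits). With the random block this probe did not pass (limma adjusted p = 0.0617). PSMG3-AS1 had control levels of −1.27, −4.51, −1.36 and −4.09 and IL-1β levels of −2.98, −5.76, −3.28 and −6.41, a fall of at least 3.13-fold on the background-subtracted signal (limma adjusted p = 0.00188), and its other probe did not pass (limma adjusted p = 0.0726). In PSMG3-AS1 slides 1 and 3 were high in either group and slides 2 and 4 low, so that the groups overlapped between slides and not within one. PSMG3-AS1 and B3GALT5-AS1 passed in all 16 fits with an array or slide left out. PSMG3-AS1 did not pass with normexp (−0.62, adjusted p = 0.0858), in the table of the authors (−0.50, 0.0976) or with the random block (0.121), and B3GALT5-AS1 did not in the table of the authors (−0.57, 0.0503). The probe of VAC14-AS1 lies on the plus strand at chr16:70807086-70807145 and that of PSMG3-AS1 on the plus strand at chr7:1628857-1628916 (hg19). They are shown as members that fell from a level well above background in all 4 controls.
VAC14-AS1: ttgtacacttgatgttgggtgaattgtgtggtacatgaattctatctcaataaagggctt
PSMG3-AS1: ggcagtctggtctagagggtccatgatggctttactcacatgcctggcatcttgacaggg

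Several of the largest falls concern dim probes. LINC00965, WEE2-AS1, SOCS2-AS1 and ATE1-AS1 were well above background on 1 of 4 control arrays and 0 of 4 IL-1β arrays, and on the background-subtracted signal their falls were at least 2.74-fold, 1.48-fold, 2.00-fold and 2.31-fold. With normexp their log2 differences were −0.31, −0.30, −0.26 and −0.26, of which only LINC00965 passed. In the table of the authors they were −0.23, −0.20, −0.20 and −0.21, and none of the 4 passed. CEBPB-AS1 and the dimmer probe of ZNF436-AS1 (A_33_P3363720) were not well above background on any control or IL-1β array, so no fold is given, although both passed (limma adjusted p = 0.0301 and 0.0124). Neither passed with normexp or in the table of the authors. Among members well above background on all 12 arrays, WDFY3-AS2 had control levels of −0.82, −2.28, −0.70 and −2.76 and IL-1β levels of −3.10, −3.46, −2.85 and −3.15. All IL-1β arrays were below all controls, a fall of 2.82-fold (limma adjusted p = 0.0313). It did not pass with normexp (−0.78, adjusted p = 0.0724), in the table of the authors (−0.60, 0.101) or with the random block (0.103). LINC00339 fell 2.19-fold (limma adjusted p = 0.0117), H1FX-AS1 2.64-fold (0.0157) and LRRC75A-AS1, a host gene of small nucleolar RNAs now named SNHG29, 1.46-fold (0.0432). With normexp all 3 passed, with log2 differences of −0.73, −0.54 and −0.56. In the table of the authors H1FX-AS1 did not (−0.41, adjusted p = 0.0502), and with the random block LRRC75A-AS1 did not (0.119). Of 53 member genes with 2 or more tested probes, 7 had a probe that passed. In NDUFA6-AS1 and ZNF436-AS1 2 probes passed, in the same direction. The dimmer ZNF436-AS1 probe, not well above background in either group, adds no support to the fall of the brighter one.

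Of 42 other named long noncoding RNAs outside the naming rule, 24 were tested, and 1 rose and 2 fell with IL-1β, with a median difference of −0.12. MIR155HG, the host of miR-155, had control levels of −4.56, −4.36, −4.17 and −4.45 and IL-1β levels of 0.78, −1.94, 0.50 and −2.53. Every IL-1β array was above the controls and it rose (limma adjusted p = 0.0124), but it was well above background on 8 of 12 arrays, so no size is given. TP53TG1 fell by 1.50 ± 0.30 (limma adjusted p = 0.021) and CASC2 by 1.04 ± 0.24 (0.0326). MALAT1 and GAS5 had differences of −0.91 and −0.58 and did not pass (limma adjusted p = 0.104 and 0.128). For comparison, 20 of 36 tested IL-1β and NF-κB response genes rose and 0 fell, with a median of 3.78. Of 19 genes that process, degrade or partner with noncoding RNA, and of 7 housekeeping genes, 0 passed, with medians of 0.18 and 0.21. The consensus of NF-κB binding sites was searched on both strands of the promoters that RefSeq gives (GRCh38), which hold the start of each gene. It was present in 5.72% of 27305 promoters, in 25 of 293 member promoters (8.53%), in 0 of 4 of members that rose and in 1 of 22 of those that fell, LRRC75A-AS1. A match of letters is not a binding site.

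Of the 16 markers of proximal tubule and renal epithelium tested, 4 fell, namely LRP2, SLC34A1, CDH6 and EPCAM, with a median of −0.33. LRP2, the endocytic receptor megalin, fell by 2.35 ± 0.16 on the log2 scale (limma adjusted p = 0.000413). Of the distal tubule and collecting duct markers 2 of 6 were tested, and SCNN1A, a subunit of the epithelial sodium channel, fell by 2.71 ± 0.30 (limma adjusted p = 0.00266). None of the podocyte (3 of 4 tested), endothelium (2 of 4), fibroblast (3 of 5) or leukocyte markers (3 of 5) passed. Their part in the falls of the members was not tested, and fewer cells of a kind cannot be told apart from less RNA per cell.

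**Figure D4:**
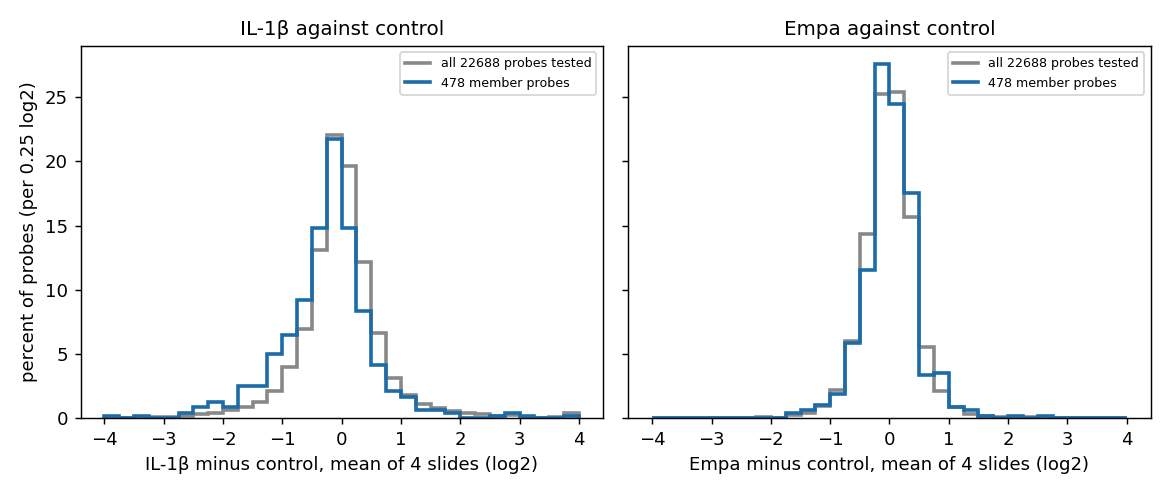
Distribution of the difference to control (mean of 4 slides, log2) of the 478 member probes and all 22688 probes tested, in percent of each per bin, values beyond the ends in the end bins. With IL-1β the members' median is −0.18 and that of all probes −0.03.

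The members ending in -AS1, -AS2 or -IT1 were set beside the gene they are named after. For 179 of these, both had a tested probe, and the brightest probe of each gene was used. With IL-1β, 104 of 179 pairs (58.1%) had the same sign, and Pearson's r across pairs was 0.26. Pairs are not independent replicates, and both values come from the same arrays. In 18 pairs only the antisense member passed, in 14 only the sense gene and in 5 both. SOCS2-AS1 and SOCS2, a suppressor of cytokine signaling, fell together, with SOCS2 lower by 2.42 ± 0.18 on the log2 scale (limma adjusted p = 0.000579). SOCS2-AS1 was well above background on 1 of 4 control and 0 of 4 IL-1β arrays. It did not pass with normexp (−0.26, limma adjusted p = 0.0604) or in the table of the authors (−0.20, 0.107). ZNF436 fell by 0.76 ± 0.15 (0.0193) beside ZNF436-AS1, and LRRC75A by 0.68 ± 0.15 (0.0289) beside LRRC75A-AS1. The pairs of opposite direction were CEBPB-AS1, not well above background on any control or IL-1β array, beside CEBPB, an inflammatory transcription factor that rose by 2.15 ± 0.46 (limma adjusted p = 0.0264), and ARRDC1-AS1 (−0.91 ± 0.17, 0.0165) beside ARRDC1 (0.93 ± 0.16, 0.0114). ARRDC1-AS1 passed with normexp but not in the table of the authors (−0.47, adjusted p = 0.063) or with the random block (0.146).

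Most named members moved without a change of their partner that passed. VAC14 had 0.22 ± 0.23 beside VAC14-AS1, PSMG3 −0.04 ± 0.19 beside PSMG3-AS1, STX17 −0.30 ± 0.31 and ZMIZ1 0.38 ± 0.20. FUT8 had 1.95 ± 0.55 (limma adjusted p = 0.0636). SVIL-AS1 had 0.66 (limma adjusted p = 0.0811) beside SVIL, which rose by 1.90 ± 0.20 (0.00219). Of the pairs with RefSeq start sites for both genes, 64 had starts within 1000 bases on opposite strands. These shared the sign of the IL-1β difference in 34 pairs (53.1%, r = 0.355), and the other 46 pairs in 26 (56.5%, r = −0.118). A missed threshold does not show that a partner stayed the same.

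**Figure D5:**
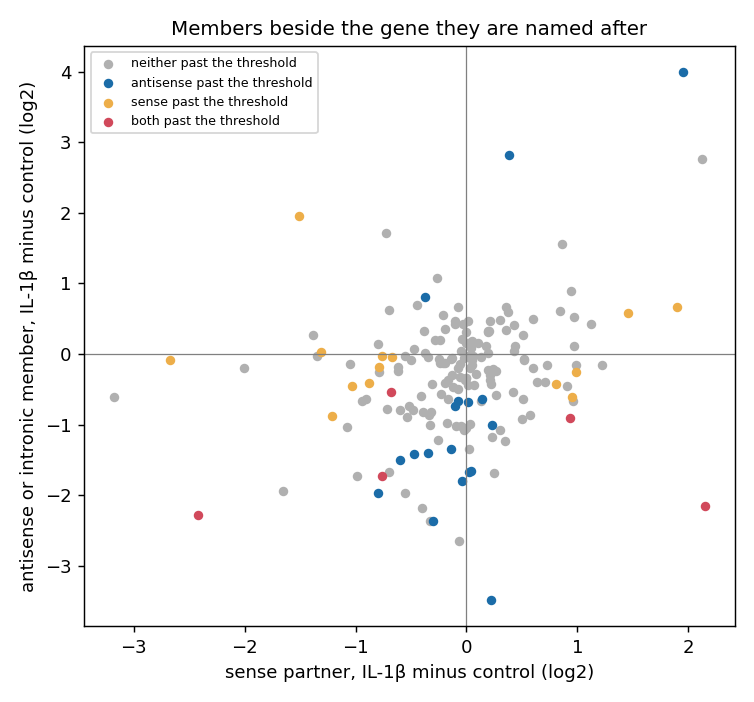
IL-1β minus control (log2, mean of 4 slides) of 179 antisense or intronic members against the gene each is named after, 1 point per pair. In 5 pairs both passed, and ARRDC1-AS1 with ARRDC1 lies in the quadrant of opposite signs.

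With Empa, 0 of 478 members passed (limma adjusted p of at least 0.236), against 0.00441% of all probes, and 38 members were at an unadjusted p under 0.05 (7.95%, against 10.7% of all probes). The unpaired t-test that the study states for its PCR and ELISA data, applied here to the arrays, gave 5 members without adjustment (1.05%, against 3.55% of all probes) and 0 after Benjamini-Hochberg. The only probe of the array that passed limma, chosen after its values were seen, was that of DHRS2, an oxidoreductase, with a difference of 2.77. The median difference was 0.02 over members. Higher than control on each of 4 slides were 45 members (9.41%, against 13.0%), and lower 32 (6.69%, against 11.3%). None of the following passed the test. They were the highest and lowest among members of the same sign on 4 slides and well above background on all 12 arrays. OIP5-AS1 had Empa levels of −0.33, −0.28, −0.46 and −0.02, all above the 4 controls, a difference of 0.97 ± 0.16 (limma adjusted p = 0.236). ZSCAN16-AS1 had control levels of −3.45, −3.32, −3.11 and −3.77 and Empa levels of −2.11, −2.31, −2.58 and −2.44, which do not overlap, a difference of 1.05 ± 0.17 (limma adjusted p = 0.236). ALOX12-AS1 had 1.02 ± 0.21, SVIL-AS1 0.58 ± 0.20 and PDCD4-AS1 0.58 ± 0.20. Without adjustment, the t-test was passed by OIP5-AS1, ZSCAN16-AS1 and SVIL-AS1 of these.

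At the low end, LINC01405 had a difference of −1.10 ± 0.26 with Empa (limma adjusted p = 0.313) and fell by 1.13 ± 0.26 with IL-1β (limma adjusted p = 0.0326). With the random block LINC01405 did not pass for IL-1β (limma adjusted p = 0.0826). Its levels were 2.77, 0.21, −0.07 and 0.74 in the controls and 1.12, −1.03, −0.38 and −0.45 with Empa. LINC01529 had −0.72 ± 0.17, AGAP2-AS1 −0.70 ± 0.29, DLEU1-AS1 −0.53 ± 0.51 and BFSP2-AS1 −0.46 ± 0.19 with Empa. With IL-1β, BFSP2-AS1 fell by 1.28 ± 0.19 (limma adjusted p = 0.00773, and 0.0738 in the table of the authors), and AGAP2-AS1 had −0.23. Both treatments are compared with the same control arrays, so the values stand side by side and are not independent. VAC14-AS1, which fell with IL-1β, had Empa levels of −2.24, −3.68, −2.58 and −3.36, all well above background and below the 4 controls, a difference of −1.48 that did not pass (limma adjusted p = 0.465).

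The effects were also compared between the lines as labelled. limma called 0 of 478 members for the difference of the IL-1β effect and 0 for that of the Empa effect, against 0.00% of all probes each, with 14 (2.93%, against 1.39%) and 6 members (1.26%, against 1.07%) at an unadjusted p under 0.05. Within the arrays labelled HK-2, 77 members were at an unadjusted p under 0.05 with IL-1β (16.1%, against 12.7% of all probes) and 0 passed, and within those labelled RPTEC/TERT1 57 (11.9%, against 9.95%) and 0. Since the labels run against the levels, these comparisons describe the labels and not the lines.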

How the data were processed

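RNA was measured on 12 one-color Agilent arrays. The authors deposited scanner intensities, which Feature Extraction had background-subtracted, and the authors deposited a table of log2 values. Of 44495 spots, 1377 control spots and outlier spots were left out. Signals were averaged per probe, scaled to the 75th percentile of the array, raised to at least 1 unit and put on the log2 scale. Probes well above background, as the software marks it, on at least 2 arrays were tested. limma 3.58.1 in R 4.3.3 was fitted with slide as a term (6 residual degrees of freedom). The pairing was checked: deviations of arrays of a slide from their group means correlated with r between 0.693 and 0.886. Since each labelled group holds slides of unlike levels, this follows from the label conflict and does not show a pairing by replicate number. The slide term was set because arrays were compared within slides. Biological replicates number 2 per group. The fits were tested on simulated data. A fold against dim arrays is a bound, taken at the lowest signal well above background. Named members were those with the largest changes past the threshold and the same sign on every slide, for Empa the 5 highest and 5 lowest of those with the same sign on every slide and well above background on all 12 arrays, and the 10 with the widest control range, dim controls raised to the lowest signal well above background. Members and lists were chosen with earlier results of these data known. Alternatives were quantile normalization alone or after normexp background correction, the authors' table, other filters and floors, outlier spots kept, 1 probe per gene, an intensity trend, no slide term, a random slide block, the unpaired t-test that the study states for PCR and ELISA, and each array or slide left out. The arrays of a single scan were added after seeing the data. Figures were drawn with matplotlib 3.10.9.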

Additional observations from a re-analysis of the deposited data

Results flagged for a closer look

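LINC00965 had differences between IL-1β and control of −4.39 to −4.32 on 3 slides and of −2.18 on the slide labelled HK-2 replicate 2, which lies far from the others. The IL-1β arrays of the 3 slides were at the floor of the scale, so their differences depend on it. Of 27 groups of 4 slides looked at, 1 had such a slide, and chance gives about 1 in 20.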

How the results depend on the processing

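The count of members that passed with IL-1β was 41 (5 higher, 36 lower) of 1877 probes in all. Without the replicate block (no slide term) it was 1 (0 higher, 1 lower) of 6, with slide as a random block 11 (1 and 10) of 436, with the unpaired t-test stated for PCR and ELISA after Benjamini-Hochberg 0 (0 and 0) of 36, and with that t-test without adjustment 54 (9 and 45). It was 22 (17 lower) of 2038 with normexp and quantile normalization together (4.6% of members, against 8.98% of all probes). In the authors' table it was 14 (1 and 13) of 1948 (2.93%, against 8.59%). For probes well above background on all 12 arrays it was 26 (22 lower) of 1941 (11.7%, against 12.7%). Without a filter it was 31 (3 and 28) of 1522 (3.18%, against 4.55%). The arrays of either single scan, added after seeing the data, gave 0 members (0 higher, 0 lower) and 0 probes. Leaving out an array or a slide gave between 7 and 63 members, 0 to 11 higher and 7 to 52 lower, and 263 to 3095 probes. For Empa 1 probe passed, against 0 with quantile normalization alone or after normexp, the authors' table, the filter on all 12 arrays, no filter, a floor of 5, an intensity trend, no replicate block, the random block and the adjusted t-test, and 0 to 3 with arrays left out. The unadjusted t-test gave 5 members and 806 probes. The control level on each slide, as a range above 2, gave 145 members, and 222 in the authors' table. The cause of these shifts was not tested, beyond fewer arrays or probes in the fit. The counts of 0 between the lines as labelled stayed at 0 under every alternative run, the replicate block included. For the members named for IL-1β, a call was kept in 290 combinations of member and alternative and lost in 221, and no direction reversed. For Empa, 3 unadjusted t-tests were past 0.05. Signal near background limits the falls of dim members.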
